A study of Mus musculus with 8 samples.

Results

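Metabotropic glutamate receptors are G protein-coupled receptors that sense synaptic glutamate and adjust how strongly a synapse transmits. The genes described here are Grm2, Grm3, Grm4, Grm5, Grm7 and Grm8, found by exact symbol match, and they are 6 of the 21959 genes in the deposited table. All 6 passed the filter on low counts and were tested. They were compared between 4 mouse libraries labelled Model and 4 labelled IsoL.

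Model libraries came from wild-type mice whose treatment label is PCPA (para-chlorophenylalanine, which blocks serotonin synthesis and is used to produce insomnia). IsoL libraries came from wild-type mice whose treatment label is isoliensinine, a plant alkaloid studied here for its effect on sleep. Per the series design text, female ICR mice were dosed over 7 days, isoliensinine being given at 12.5, 25 or 50 mg/kg, and pentobarbital was injected after the last dose. The labels do not say which dose was sequenced, whether IsoL mice also received PCPA, the age of the mice or whether each library is a separate mouse, so the p-values reflect library-to-library spread only, which may be technical. Untreated mice were not analysed here, and every difference is IsoL relative to Model.

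The receptors fall into 3 classes. Group I, to which Grm5 belongs, couples through Gq to phospholipase C and calcium release, and acts mostly on the postsynaptic side. Group II (Grm2 and Grm3) and group III (Grm4, Grm7 and Grm8) couple through Gi/o, lower cyclic AMP and, on nerve terminals, reduce transmitter release. Grm3 is also expressed by astrocytes. In the hypothalamus and thalamus, these receptors tune the glutamate inputs that take part in arousal.

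Summed gene counts were 14262836 to 15886850 in Model and 15731923 to 21620466 in IsoL. The tissue label reads brain, whereas the design text describes a dissected hypothalamus. The 18 hypothalamic markers summed to 259 to 317 CPM (library-scaled counts) in Model and 118 to 227 CPM in IsoL, and all were read. Nkx2-1, which patterns the ventral hypothalamus, had 13.9 ± 1.91 CPM in Model against 8.80 ± 1.66 CPM in IsoL, and its relative Nkx2-4 had 2.06 ± 0.683 against 1.15 ± 0.328 CPM (SD, n = 4; edgeR adjusted p = 0.0687 and 0.259). Of 17 hypothalamic markers tested, 14 were below Model. One (1) passed, against 0.275% of all genes: Pmch, a neuropeptide gene of the lateral hypothalamus (log2 -0.89, edgeR adjusted p = 0.0471, chosen with its values known). An unadjusted edgeR p under 0.05 was found for 11 of the 17, against 13.2% of all genes. In 8 every IsoL library was below every Model library and in 1 above, against 8.48% of all genes without overlap in either direction. The 6 choroid plexus markers summed to 18.3 to 25.6 CPM in Model and to 706, 611, 71.9 and 18.1 CPM in IsoL 1 to 4, and the 12 cortical and hippocampal markers to 213 to 238 CPM in Model and 368, 353, 218 and 190 CPM in IsoL 1 to 4. The hypothalamic sums of the groups did not overlap, while the choroid plexus sums and the cortical and hippocampal sums did, being high in IsoL 1 and 2.

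Sequence just upstream of the start is shown for the group II pair, because these closely related receptors gave the widest contrast in the data below. RefSeq windows (GRCm38.p6) were found for 4 of the 6 genes, Grm2, Grm3, Grm7 and Grm8. Each line gives the 250 bases before a start, 5′ to 3′ on the gene's strand. Capitals mark the GC box GGGCGG, searched on both strands (as CCGCCC on the other), with overlaps counted.
Grm2, chr9:106656110-106656359, minus strand: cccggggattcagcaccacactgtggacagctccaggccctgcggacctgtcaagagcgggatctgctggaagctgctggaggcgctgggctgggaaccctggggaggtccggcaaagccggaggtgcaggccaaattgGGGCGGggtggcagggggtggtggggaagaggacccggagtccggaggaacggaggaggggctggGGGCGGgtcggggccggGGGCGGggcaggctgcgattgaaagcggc
Grm3, chr5:9725353-9725602, minus strand: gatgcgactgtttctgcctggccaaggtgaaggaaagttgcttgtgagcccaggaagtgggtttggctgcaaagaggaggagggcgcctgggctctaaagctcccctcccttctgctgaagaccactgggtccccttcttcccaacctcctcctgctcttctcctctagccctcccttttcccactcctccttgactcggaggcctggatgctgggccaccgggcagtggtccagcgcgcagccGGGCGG
The Grm2 window had 3 matches, 16 CG dinucleotides and a GC content of 71.2%. The Grm3 window had 1 match, ending at its last base, with 8 CG dinucleotides and 62.4% GC. Each of the 4 genes had a window with a match. Counted by window, 5 of 7 had a match, against 32.7% of all 32851 windows of this length. These 5 include both Grm7 windows, which overlap and hold the same match, and 1 of 3 for Grm8. The median window had 52.4% GC. A match describes letters in a window and is no evidence of binding.

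None of the 6 receptor genes changed between groups at a Benjamini-Hochberg adjusted p of 0.05 in edgeR's quasi-likelihood test, a rule that called 0.275% of the 14536 genes tested. At an unadjusted p under 0.05, 1 of the 6 was called (Grm3), against 13.2% of all genes. In 1 of the 6 (Grm3 again) the libraries of the groups did not overlap, against 8.48% of all genes. The members' median log2 change was 0.04, beside -0.00146 over all genes tested, and the median size of change was 0.08 beside 0.09. Of the 6, 4 were above Model, against 49.5% of all genes. DESeq2 (2.14% of genes called) and limma voom (1.64%) called none of the 6 either.

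**Figure D1:**
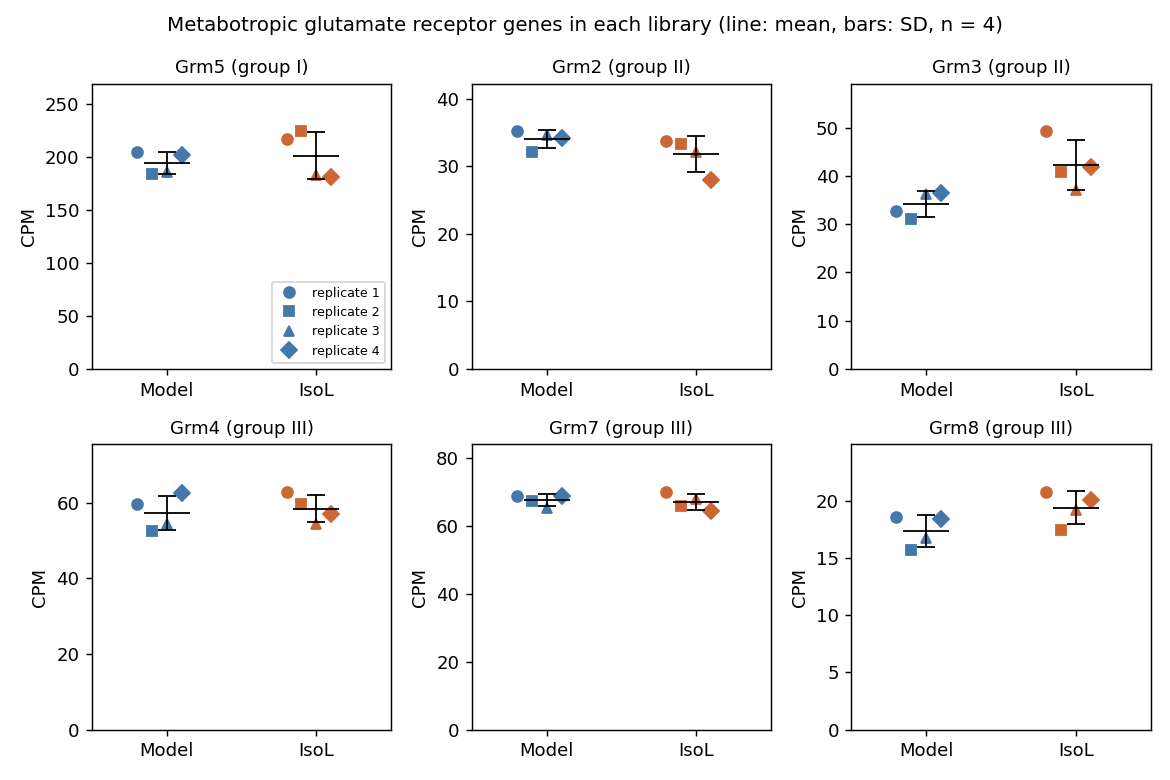
CPM of each receptor gene in each library (points, shape by replicate number), with the mean (line) and SD (bars) of the 4 libraries of a group; the vertical axes start at 0 and differ between panels. Grm3 in IsoL lies between 37.0 and 49.2 CPM, above all Model libraries, while the groups overlap for the other 5 genes.

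Grm5 (ENSMUSG00000049583, chromosome 7, 87233376 to 87784115, in coordinates of the deposited file; no source used here names their build) encodes mGluR5, the group I receptor held at the postsynaptic density by Homer and Shank scaffolds. It was read at 205, 184, 186 and 202 CPM in Model 1 to 4 and at 216, 224, 183 and 181 CPM in IsoL 1 to 4. IsoL 1 and 2 were above every Model library and IsoL 3 and 4 below every one, so the groups overlapped through a split within IsoL. The log2 fold change was 0.05 (95% interval -0.11 to 0.21, edgeR adjusted p = 0.805). With IsoL 3 and 4 alone against Model it was -0.09, a value given as a description because these are the gene's lowest libraries. Its coefficient of variation was 5.49% in Model and 11.1% in IsoL, where counting error alone gives 1.87% and 1.69%. The cortical and hippocampal marker sums parted the same pairs of IsoL libraries, and their part in the Grm5 values was not tested. Neurod6, a gene of cortical excitatory neurons, was at 2.16 ± 0.758 CPM in Model and 9.42 ± 9.13 CPM in IsoL (SD, n = 4; chosen with its values known).

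Grm6, the group III receptor of retinal bipolar cells and not among the 6, had 1 count in all of Model and 2 in all of IsoL, under the floor of 3 counts.

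Grm2 (ENSMUSG00000023192, chromosome 9, 106520294 to 106533281) encodes mGluR2, a group II autoreceptor of glutamate terminals. Its values were 35.2, 32.0, 34.6 and 34.2 CPM in Model 1 to 4 and 33.8, 33.3, 32.1 and 27.9 CPM in IsoL 1 to 4. Only IsoL 4 fell outside the Model range, below it. The log2 fold change was -0.10 (SE 0.07, 95% interval -0.26 to 0.06, edgeR adjusted p = 0.591), and without IsoL 4 it was -0.04 (edgeR adjusted p = 0.872). Model libraries varied by 4.04% (coefficient of variation), where counting error alone gives 4.45%.

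Grm3 (ENSMUSG00000003974, chromosome 5, 9535541 to 9775170) encodes mGluR3, the group II receptor found on astrocytes as well as neurons. It was read at 32.7, 31.0, 36.3 and 36.5 CPM in Model 1 to 4 and at 49.2, 40.8, 37.0 and 41.9 CPM in IsoL 1 to 4. All 4 IsoL libraries were above all Model libraries, with IsoL 1 highest and IsoL 3 only just above Model 4. That last gap was smaller than the counting error of these libraries, which was 4.45% on average in Model and 3.69% in IsoL. The mean was 34.1 ± 2.74 CPM in Model and 42.2 ± 5.12 CPM in IsoL (SD, n = 4), a 1.24-fold difference with a 95% interval of 1.09 to 1.41. On the log2 scale this was 0.31 (SE 0.09), and it did not pass the adjustment over all genes (edgeR adjusted p = 0.150; unadjusted rank 337 of 14536). Over the 14 alternative fits the adjusted p ran from 0.0684 (DESeq2) to 0.574 (IsoL 3 and 4 alone against Model, log2 0.21), and the value stayed above 0 in each. Leaving out IsoL 1 gave a log2 change of 0.23 (edgeR adjusted p = 0.366).

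None of the 10 astrocyte markers passed in edgeR (0.275% of all genes did), and 2 had an unadjusted p under 0.05 (13.2% of all genes). All 10 of 10 had a log2 change above 0, with a median of 0.06, and none was at 0 counts. Markers of other glia lay on the same side with larger medians. Of the microglial markers 7 of 7 were above Model (median log2 change 0.14), and of the oligodendrocyte markers 9 of 10 (median 0.11), and none passed. This side was therefore not particular to astrocytes. An unadjusted edgeR p under 0.05 was found for 4 of the 7 microglial and 4 of the 10 oligodendrocyte markers. Every IsoL library was above every Model library in 3 microglial, 2 oligodendrocyte and 2 astrocyte markers, against 8.48% of all genes without overlap in either direction. The summed level of the astrocyte markers was 4086 to 4541 CPM in Model and 4724 to 4833 CPM in IsoL, without overlap. The microglial sums (196 to 231 CPM in Model, 228 to 267 in IsoL) and oligodendrocyte sums (14084 to 14486 and 14311 to 15816) did overlap. A sum weighs abundant markers most, such as Slc1a2 of the astrocyte list (1924 ± 209 and 2197 ± 59.5 CPM, chosen with its values known). With markers weighed equally, as mean log2 CPM centred on the 8 libraries, the microglial groups did not overlap either (-0.17 to -0.04 and -0.01 to 0.19). The oligodendrocyte groups still did. Aqp4, the water channel of astrocyte endfeet, was at 288 ± 21.1 CPM in Model and 341 ± 22.8 CPM in IsoL (log2 0.24, edgeR adjusted p = 0.116), and Gfap, an astrocyte filament gene, at 184 ± 77.1 and 226 ± 43.9 CPM (log2 0.29, edgeR adjusted p = 0.764; SD, n = 4). In bulk tissue, more cells of a type and more RNA per cell cannot be told apart, and the part of these markers in the Grm3 values was not tested. The 10 neuronal markers summed to 6245 to 6843 CPM in Model and 6476 to 6832 CPM in IsoL, with 3 of 10 above Model. Rbfox3, which encodes the neuronal nuclear protein NeuN, was at 97.5 ± 2.64 and 102 ± 4.25 CPM, and Snap25, of the vesicle fusion machinery, at 1821 ± 258 and 1806 ± 92.7 CPM (SD, n = 4).

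**Figure D2:**
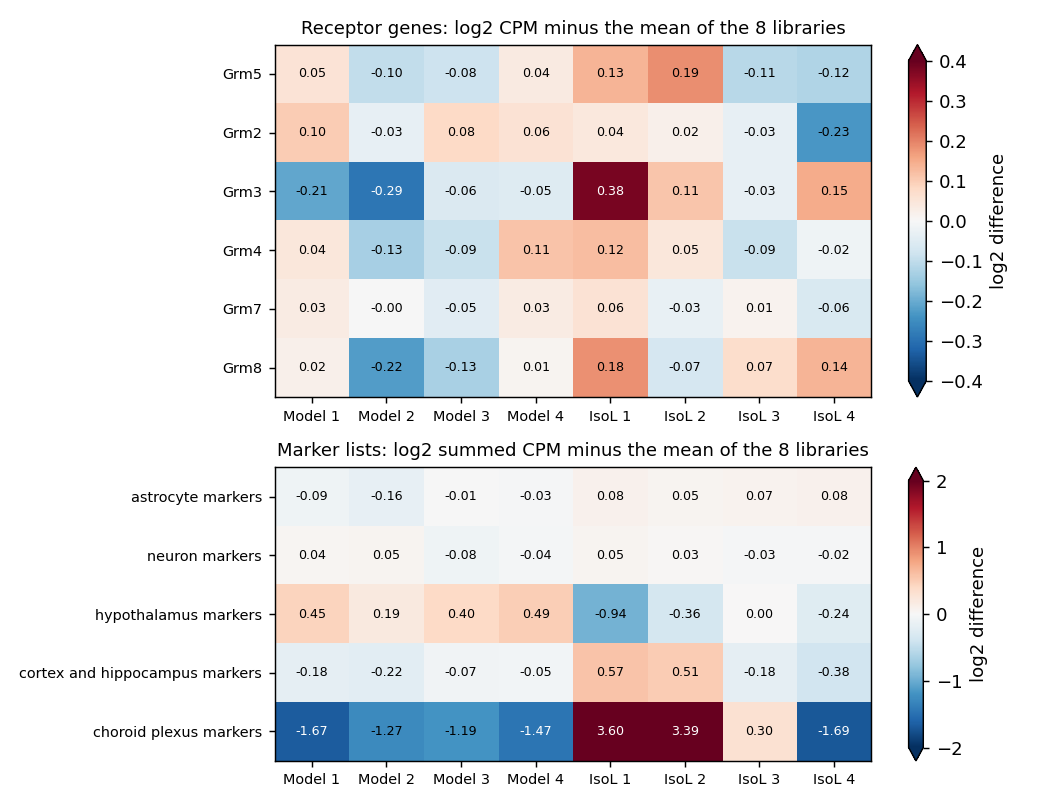
Each cell gives the log2 CPM of a receptor gene (top) or the log2 summed CPM of a marker list (bottom) in 1 library, minus the mean of the 8 libraries; the 2 colour scales differ. Grm3 runs from -0.29 in Model 2 to 0.38 in IsoL 1, while Grm7 stays between -0.06 and 0.06, and the cortex and hippocampus markers are high in IsoL 1 and 2 (0.57 and 0.51).

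Grm4 (ENSMUSG00000063239, chromosome 17, 27641361 to 27740377) encodes mGluR4, a group III receptor of presynaptic terminals. Its libraries gave 59.5, 52.6, 54.3 and 62.4 CPM in Model 1 to 4 and 62.8, 59.5, 54.3 and 57.0 CPM in IsoL 1 to 4. The groups overlapped almost completely, with IsoL 1 alone above the highest Model library. The log2 fold change was 0.03 (SE 0.07, 95% interval -0.11 to 0.17, edgeR adjusted p = 0.880).

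Grm7 (ENSMUSG00000056755, chromosome 6, 110622542 to 111544191) encodes mGluR7, the group III receptor located at the release site itself. It was read at 68.7, 67.2, 65.1 and 68.8 CPM in Model 1 to 4 and at 69.9, 65.8, 67.8 and 64.4 CPM in IsoL 1 to 4. Every library lay within a narrow band and the groups overlapped. The coefficient of variation was 2.57% in Model and 3.62% in IsoL, close to the counting error alone of 3.16% and 2.91%. Its log2 fold change of -0.01 had the narrowest interval of the 6 genes, -0.12 to 0.10, or 0.922-fold to 1.07-fold (edgeR adjusted p = 0.947).

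Grm8 (ENSMUSG00000024211, chromosome 6, 27275118 to 28135177) encodes mGluR8, a group III receptor with high affinity for glutamate. The values were 18.5, 15.6, 16.7 and 18.4 CPM in Model 1 to 4 and 20.8, 17.5, 19.2 and 20.1 CPM in IsoL 1 to 4. IsoL 1, 3 and 4 were above the highest Model library, and IsoL 2 fell within the Model range. The log2 fold change was 0.16 (SE 0.09, 95% interval -0.03 to 0.35, edgeR adjusted p = 0.457). With 1026 counts over the Model libraries it was the most thinly read of the 6, and its coefficient of variation there was 8.05%, where counting error alone gives 6.25%.

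**Figure D3:**
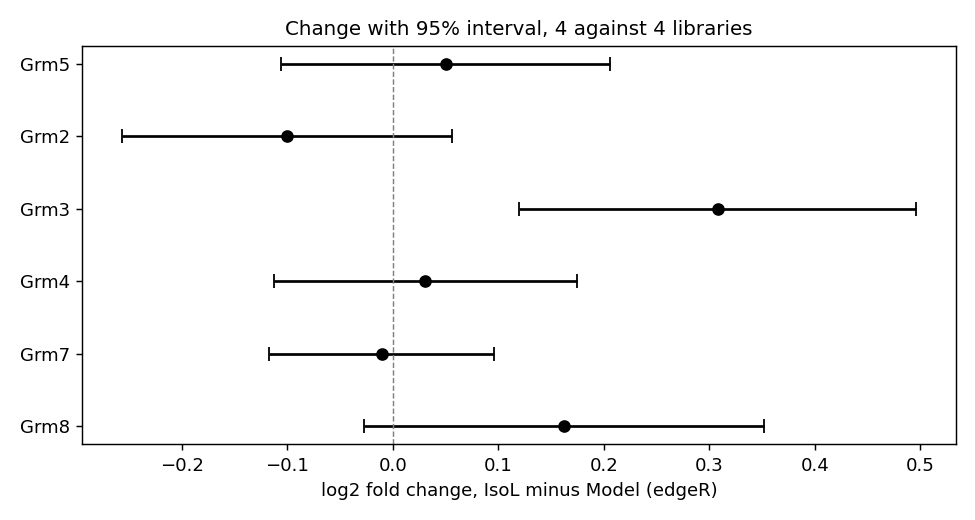
Log2 fold change (IsoL minus Model, points) and 95% interval (bars) from edgeR for the 6 receptor genes. The Grm3 interval, 0.12 to 0.50, lies above 0 before adjustment over all genes, and the other intervals include 0.

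Per gene length, Grm5 was the most abundant of the 6 transcripts and Grm8 the least. In Model the order, in FPKM scaled by TMM, was Grm5 (18.9 ± 1.04), Grm7 (11.5 ± 0.295), Grm3 (11.2 ± 0.897), Grm4 (9.57 ± 0.764), Grm2 (6.95 ± 0.280) and Grm8 (1.75 ± 0.141; SD, n = 4). Grm7 and Grm3 did not differ beyond their spread there, with Grm7 the higher in 2 of 4 libraries. Grm3 was above Grm4 in 4 of 4 Model libraries, although their ranges overlapped.

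In IsoL the order had Grm3 (13.9 ± 1.68) above Grm7 (11.4 ± 0.412) in 4 of 4 libraries, on the same scale and without overlap, and the remaining members kept their ranks (Grm5 at 19.6 ± 2.18, Grm4 at 9.77 ± 0.608, Grm2 at 6.49 ± 0.543 and Grm8 at 1.96 ± 0.145; SD, n = 4). The order was the same with the FPKM as deposited. Of the summed level of the 6, Grm3 made up 17.5 to 20.2% in Model and 20.6 to 23.5% in IsoL, and the mean share of Grm2 was 11.6 ± 0.360% and 10.3 ± 0.649% (SD, n = 4).

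**Figure D4:**
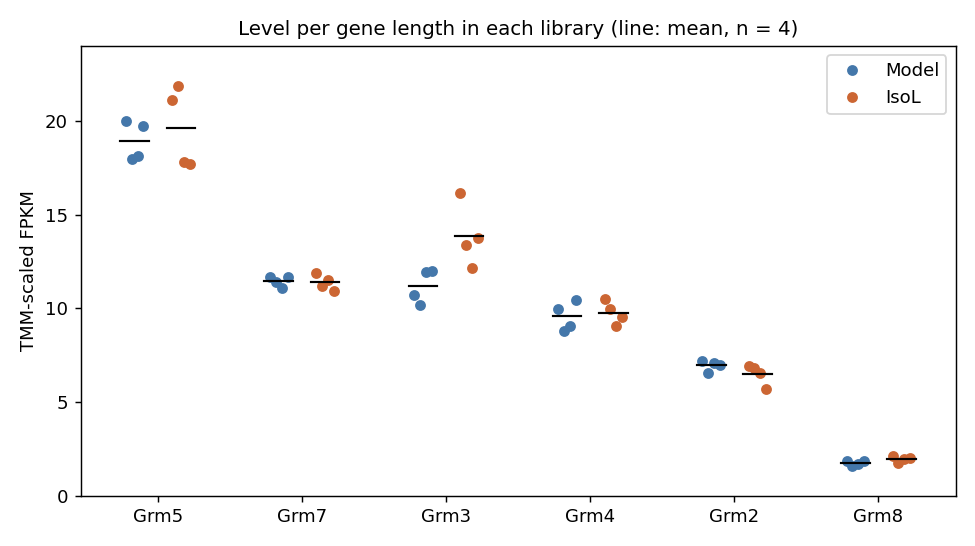
Level per gene length in TMM-scaled FPKM (vertical axis, from 0) for each library of Model and IsoL, with the mean as a line and the genes ordered by their Model mean. Grm7 and Grm3 share a level in Model, at 11.5 and 11.2, and part in IsoL, at 11.4 and 13.9.

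Ratios between members do not depend on how libraries are scaled. The read ratio of Grm2 to Grm3 was 1.07, 1.03, 0.954 and 0.935 in Model 1 to 4 and 0.686, 0.815, 0.867 and 0.666 in IsoL 1 to 4. Every IsoL library was below every Model library, a mean log2 difference of -0.40, the largest of the 15 pairs (exact permutation test, two-sided, p = 0.0286, the smallest that 70 splits give; adjusted over 15 pairs 0.214). The ratio of Grm3 to Grm4 also parted without overlap, from 0.550, 0.589, 0.669 and 0.585 in Model to 0.784, 0.685, 0.682 and 0.735 in IsoL (log2 difference 0.27, the same exact permutation p and adjusted p). The other 13 pairs overlapped, and none of the 15 passed the adjustment. For Grm3 to Grm7, the pair whose order changed, the log2 difference was 0.31 (exact permutation p = 0.0571, adjusted 0.214).

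Genes of the receptors' pathways were taken from 7 lists with 82 tested genes. None passed in edgeR in either direction, 12 had an unadjusted p under 0.05 (14.6%, beside 13.2% of all genes), and the median log2 change was -0.01. Of these genes 38 were above Model.

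The Gq list covers the G proteins, phospholipases, IP3 receptors and scaffolds of group I receptors. Of its 18 genes 11 were above Model (median log2 change 0.05). Itpr2, an IP3 receptor gene enriched in astrocytes, was at 32.6 ± 1.94 CPM in Model and 37.9 ± 1.61 CPM in IsoL (SD, n = 4; log2 0.22, edgeR adjusted p = 0.175), with the groups apart in all libraries. Shank1, a postsynaptic scaffold gene, had 261 ± 39.8 against 305 ± 21.8 CPM (log2 0.22, edgeR adjusted p = 0.399), and without Model 2 the log2 change was 0.12. Homer1, which encodes the adaptor that binds mGluR5 and whose short form is induced by activity, had 60.1 ± 3.61 against 56.8 ± 8.56 CPM (log2 -0.08, edgeR adjusted p = 0.753; chosen with its values known).

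The Gi/o list holds the G proteins, adenylate cyclases and potassium channels through which group II and III receptors act. Of its 18 genes 6 were above Model (median log2 change -0.03). Adcy2 and Adcy9 encode adenylate cyclases, the enzymes that make cyclic AMP. Adcy2 was at 78.8 ± 3.67 CPM in Model and 89.1 ± 4.13 CPM in IsoL (log2 0.18, edgeR adjusted p = 0.169), and Adcy9 at 28.3 ± 3.93 and 35.2 ± 2.71 CPM (log2 0.32, edgeR adjusted p = 0.174). For these 2 genes every IsoL library was above every Model library, and 1 gene of the list, Adcy5, parted the other way. Of all genes, 8.48% did not overlap in either direction. Adcy5, a further cyclase gene chosen with its values known, was lower in every IsoL library, at 200.5 ± 5.66 against 184 ± 5.26 CPM (log2 -0.12, 95% interval -0.22 to -0.03, edgeR adjusted p = 0.245). Gnao1, the main Go alpha subunit gene of neurons, had 601 ± 17.3 against 598 ± 5.82 CPM (log2 -0.01, 95% interval -0.09 to 0.08; chosen with its values known).

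Among the 7 genes for synaptic partners of group III receptors, 4 were above Model and the median log2 change was 0.05. Nsf, an ATPase of vesicle fusion, was at 797 ± 30.7 CPM in Model and 851 ± 8.94 CPM in IsoL (log2 0.09, edgeR adjusted p = 0.367), and Grip1, which encodes a PDZ scaffold of glutamate receptors, at 28.4 ± 2.17 and 26.4 ± 0.984 CPM (log2 -0.11, edgeR adjusted p = 0.570). Pick1, which encodes the PDZ protein that anchors mGluR7, had 10.5 ± 1.15 against 10.0 ± 0.480 CPM (log2 -0.07, edgeR adjusted p = 0.813). Elfn1, whose product recruits mGluR7 across the synaptic cleft, had 22.2 ± 2.42 against 23.6 ± 0.819 CPM (log2 0.08, edgeR adjusted p = 0.710). Pick1 and Elfn1 were chosen with their values known.

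The list of kinases, arrestins and RGS proteins, which end G protein signalling, had 4 of 13 genes above Model (median log2 change -0.06). Rgs16, which speeds the shut-off of Gi and Gq signals, was read at 57.0, 52.8, 51.3 and 56.8 CPM in Model 1 to 4 and at 39.8, 46.6, 47.1 and 36.9 CPM in IsoL 1 to 4. Every IsoL library was below every Model library. The log2 change was -0.36 (edgeR adjusted p = 0.0838), and it passed in DESeq2 (adjusted p = 0.00885), in limma voom (adjusted p = 0.0254) and in edgeR without the filter on low counts (adjusted p = 0.0459). Over the 14 alternatives the adjusted p reached 0.253. DESeq2 called 2.14% of all genes and limma voom 1.64%. Rgs2, an inhibitor of Gq, had 71.7 ± 8.02 against 60.4 ± 4.90 CPM (log2 -0.25, edgeR adjusted p = 0.215).

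Rgs4, an abundant regulator of Gq and Gi signals in forebrain neurons, was chosen with its values known. It was at 472, 488, 469.6 and 469.0 CPM in Model 1 to 4 and at 418, 441, 308 and 263 CPM in IsoL 1 to 4. All IsoL libraries were lower, IsoL 3 and 4 most. With all libraries the log2 change was -0.41 (edgeR adjusted p = 0.344). With IsoL 3 and 4 alone against Model it was -0.74, a value given as a description because these are the gene's lowest libraries.

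On the supply side, the 8 genes for vesicular glutamate transport and glutamine cycling had 4 above Model (median log2 change -0.01). Slc17a6, the vesicular glutamate transporter gene of hypothalamic and thalamic neurons, was at 576 ± 39.3 CPM in Model and 513 ± 18.3 CPM in IsoL (log2 -0.17, edgeR adjusted p = 0.209), and Slc38a1, a glutamine transporter gene, at 381 ± 13.0 and 402 ± 8.88 CPM (log2 0.08, edgeR adjusted p = 0.473). Genes for cystine-glutamate exchange and for NAAG (N-acetylaspartylglutamate, a peptide agonist of mGluR3) had 3 of 6 above Model (median log2 change -0.000689). The NAAG synthetase genes Rimklb and Rimkla had log2 changes of -0.16 and -0.11 (edgeR adjusted p = 0.285 and 0.537). Among 12 effectors of receptor-dependent plasticity 6 were above Model (median log2 change 0.00643). Mtor, a kinase gene of translational control, had a log2 change of 0.08 and Ppp2ca, a phosphatase gene, of -0.08 (edgeR adjusted p = 0.506 and 0.474).

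**Figure D5:**
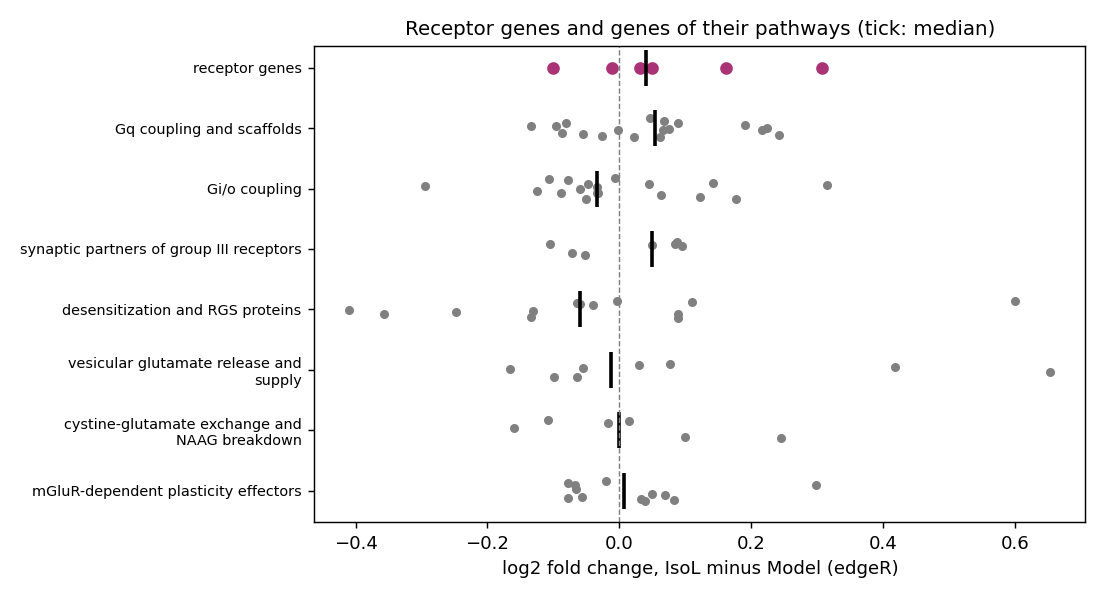
Log2 fold change (IsoL minus Model, horizontal axis) of each receptor gene (top row) and each tested gene of the 7 pathway lists (1 point per gene, vertical position within a row arbitrary), with the median of each row as a tick. No point passed the threshold in edgeR, and the row medians lie between -0.06 and 0.05.

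The genes whose log2 CPM most resembled each receptor over the 8 libraries are given by Pearson's r as a description, being the top 2 of 14037 genes compared, with no test. For Grm3 they were Cplx2 (r 0.978), which encodes the release regulator complexin 2, and Slc6a5 (r 0.973), the neuronal glycine transporter gene. Cplx2 was at 376 ± 24.5 CPM in Model and 514 ± 77.6 CPM in IsoL (log2 0.45, edgeR adjusted p = 0.0979), and Slc6a5 at 1.38 ± 0.487 and 3.33 ± 1.22 CPM (log2 1.28, edgeR adjusted p = 0.108; SD, n = 4). Neither is on the astrocyte list, but with 10 genes among the 14037 compared that list would seldom supply a nearest gene. The cell source of the Grm3 values was not tested.

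For Grm5 the nearest were Brap (r 0.983), a ubiquitin ligase gene, and Camk2b (r 0.981), a calcium-dependent kinase gene of the plasticity list. For Grm2 they were Serpina9 (r 0.973), at about 1 CPM, and the scaffold gene Shank3 (r 0.957). Grm4 was nearest to Gabbr2 (r 0.971), which encodes a subunit of the GABA-B receptor, another Gi/o-coupled receptor, and to Dbt (r 0.936). Grm8 was nearest to Acsbg1 (r 0.971) and Fcho1 (r 0.969), and Grm7 to Mc4r (r 0.936), the melanocortin 4 receptor gene, and Gpc4 (r 0.916).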

How the data were processed

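Polyadenylated RNA was sequenced, and reads were trimmed, aligned and counted with fastp 0.22.0, HISAT2 2.1.0 and HTSeq 0.9.1, per the submitters' processing notes. No source used here names the genome build or annotation. Per the file headers, the deposited values are raw read counts for every gene. FPKM from the authors stand beside them and matched counts, gene length and summed counts to within a relative 1.11e-09, and the deposited gene length. No strand marking is stated; no other gene of the table overlaps a receptor gene.

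Counts were filtered with filterByExpr (14536 genes kept), scaled by TMM (0.983 to 1.01) and compared, IsoL minus Model, by the robust quasi-likelihood test of edgeR 4.0.16 in R 4.3.3, adjusted by Benjamini-Hochberg over all genes at 0.05. CPM use the TMM-scaled library size, and 3 counts equal 0.139 to 0.210 CPM, a floor that covers counting error only. Alternatives were DESeq2 1.42.0, limma 3.58.1 voom with quality weights, DESeq2 size factors, no filter, a replicate block, each library left out, and IsoL 3 and 4 alone. The labels do not set IsoL 3 and 4 apart. Counting error is 100 divided by the square root of the count.

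The members and lists were chosen with earlier results of these data known. Named were all 6 members, up to 3 genes per pathway list past the threshold (where there were none, the 2 of smallest p), the first 2 markers of lists set beside a member, and 2 genes of mean at least 1 CPM nearest each member; others are marked as chosen with their values known. A gene of the pathway lists is not reported here and was left out of their counts. The test was tested on simulated counts, drawn independently for each library with no split inside a group. It recovered 24% of genes changed 1.25-fold, 68% of those changed 1.5-fold and 86% of those changed 2-fold. There were 7 false calls among 14442 genes. Some genes, such as Grm5, did split within the real IsoL libraries, so these rates may not carry over to them.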

Additional observations from a re-analysis of the deposited data

Results flagged for a closer look

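In 64 groups of 4 libraries (receptor genes, named pathway genes and marker sums), 5 had a library far from the other 3 by Dixon's criterion, where chance gives about 1 in 20. None of the 12 groups of receptor values did. Model 2 stood apart in Rimklb (66.8 CPM against 77.1 to 78.7 in the other Model libraries) and in the summed oligodendrocyte markers (14486 against 14084 to 14114 CPM). IsoL 1 stood apart in Adcy9 (39.2 CPM against 33.4 to 34.3) and in Nsf (864 against 845 to 848), and IsoL 2 in Grip1 (24.9 CPM against 26.8 to 27.0).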

How the results depend on the processing

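No receptor gene passed in any of 14 alternatives (0 in each), and Grm2, Grm3 and Grm8 kept their direction in all 14. Grm4 turned to -0.0290 in limma voom and to -0.0385 with IsoL 3 and 4 alone. Grm5 turned to -0.0947 with IsoL 3 and 4 alone, which are its lowest libraries. With single libraries left out, Grm4 ran from -0.00724 to 0.0786, Grm5 from -0.00345 to 0.0975 and Grm7 from -0.0299 to 0.00838, all within their intervals around 0. The count of all genes called, 40, was 74 without the filter, 17 with the replicate block, 311 in DESeq2, 238 in limma voom and 6 to 146 with a library left out (6 without Model 4 or IsoL 2, 146 without Model 2); the cause was not tested. The count of pathway genes called rose from 0 to 1 without the filter, in DESeq2 and in limma voom (Rgs16 in each), and with IsoL 3 and 4 alone (Rgs4, whose lowest libraries these are). Of the named pathway genes, Shank1 moved to 0.12, Rimkla to -0.05 and Ppp2ca to -0.05 without Model 2, Grip1 to -0.05 without Model 4 and Mtor to 0.06 without IsoL 2. Libraries with the same number were not paired by the labels, and their deviations correlated at 0.0260, 0.0199, 0.0696 and 0.0626 for numbers 1 to 4; with the replicate block no receptor gene passed either (Grm3 log2 0.30, edgeR adjusted p = 0.198). The read depth limits Grm8 most.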
